A study of Homo sapiens with 6 samples.

Results

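The 10 snoRNA host genes GAS5, SNHG1, SNHG5, SNHG6, SNHG7, SNHG8, SNHG12, SNHG15, SNHG16 and ZFAS1 were followed in MOLM14 cells by their gene symbols, and all 10 were found among the 13244 genes of the deposited RNA-Seq count table and passed the low-count filter. MOLM14 is an AML line established from human leukemia, and its labelled genotype is FLT3 ITD, an internal tandem duplication that keeps the receptor tyrosine kinase FLT3 active. In 3 cultures (replicates 7, 8 and 9) the cells received 2 nM HSN748, an alkynyl nicotinamide kinase inhibitor directed at FLT3, and in 3 control cultures (replicates 1, 2 and 3) they received DMSO, each for 24 hours in serum-supplemented RPMI. All cultures carried FLT3 ITD, and the series holds 1 cell line and 1 dose. The comparison asks how gene transcription in FLT3-mutated leukemia cells differed after the inhibitor.

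A snoRNA host gene makes a spliced RNA from its exons and small nucleolar RNAs (snoRNAs) from its introns. The snoRNAs of the C/D box class guide methylation of ribosomal RNA and those of the H/ACA class guide its conversion to pseudouridine, and both are trimmed out of the intron after splicing. Many host transcripts start with a C followed by a run of pyrimidines, the terminal oligopyrimidine (TOP) motif shared with messenger RNAs of ribosomal proteins, whose translation depends on mTOR. The spliced RNA of many hosts carries no long open reading frame, and when it is translated it is degraded by nonsense-mediated decay. GAS5 takes its name from its accumulation in growth-arrested cells.

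The start regions show which of the hosts carry, at their annotated start, the feature that gives the class its name. RefSeq (GRCh38.p14) lists a promoter for 8 of the 10 genes, and SNHG6 and SNHG15 were not analysed there. Shown are 6 of the 8 windows, chosen to include hosts with and without the motif and hosts that rose or fell. Each window has 50 bases before the annotated start and 30 from it on, 5′ to 3′ on the gene's strand, so that base 51 is the start. Capitals mark the letters TATAA where they lie within bases −40 to −21, and the run of pyrimidines that begins with a C at the start.
ZFAS1: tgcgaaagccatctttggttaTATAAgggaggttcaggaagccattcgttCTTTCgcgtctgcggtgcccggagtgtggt
SNHG5: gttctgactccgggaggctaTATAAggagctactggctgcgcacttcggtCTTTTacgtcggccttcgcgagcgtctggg
SNHG12: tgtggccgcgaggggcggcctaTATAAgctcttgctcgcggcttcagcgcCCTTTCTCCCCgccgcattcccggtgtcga
SNHG1: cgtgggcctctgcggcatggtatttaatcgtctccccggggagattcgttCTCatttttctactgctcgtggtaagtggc
GAS5: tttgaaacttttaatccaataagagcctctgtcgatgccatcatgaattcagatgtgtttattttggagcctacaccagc
SNHG16: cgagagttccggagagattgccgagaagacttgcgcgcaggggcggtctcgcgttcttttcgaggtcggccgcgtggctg
These windows lie at chr20:49278592-49278671 on the plus strand for ZFAS1, chr6:85678704-85678783 on the minus strand for SNHG5, chr1:28581844-28581923 on the minus strand for SNHG12, chr11:62855856-62855935 on the minus strand for SNHG1, chr1:173869016-173869095 on the minus strand for GAS5 and chr17:76557714-76557793 on the plus strand for SNHG16.

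A C followed by 4 or more pyrimidines stood at the annotated start in 3 of the 8 hosts (ZFAS1, SNHG5 and SNHG12), or 37.5%, against 4.04% of all 27305 RefSeq promoters and 68.3% of 63 ribosomal protein promoters. A C alone stood at the start in 6 of 8 (75.0%), against 15% of all promoters and 74.6% of those of ribosomal proteins. The letters TATAA, a search chosen after the sequences were seen and read on the gene's strand, lay between bases −40 and −21 in 5 of 8 (62.5%; ZFAS1, SNHG5, SNHG7, SNHG8 and SNHG12), against 4.07% of all promoters and 9.52% of those of ribosomal proteins. CACGTG, whose complement reads the same, occurred within the 300 bases around the start in 1 of 8 (SNHG7), against 7.43% of all promoters. The 3 hosts with the pyrimidine run went different ways after HSN748, since ZFAS1 rose, SNHG12 fell and SNHG5 was not called. The deposited table places the GAS5 end 163 bases from the RefSeq start, ZFAS1 464 bases and SNHG12 1110 bases away, so for these the windows describe the RefSeq start and not the one counted.

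Library totals ranged from 35277785 to 59279430 counts. Levels are given as CPM, a gene's counts relative to the TMM-scaled size of its library, and each adjusted p of a gene comes from the edgeR quasi-likelihood test, adjusted by Benjamini-Hochberg over 13084 genes. The cultures are described as biologically independent. Of the 10 myeloid leukemia markers, 9 were in the table, among them CD33, SPI1, LYZ and FLT3, and ANPEP was not. Of the 9, 6 were higher in HSN748, 2 were not called and 1 was lower, MPO, at 10.9 CPM in DMSO and 2.28 CPM in HSN748. Of 11 markers of other cell types 3 were in it, KRT8 and COL1A1 at means of 0.93 and 0.26 CPM in DMSO and 3.31 and 1.59 CPM in HSN748, and PECAM1, which leukocytes also express, at 211 and 615 CPM. DMSO replicate 3 stood apart by gene length. Its level exceeded the mean of the other DMSO replicates by a median of 0.60 (log2) over 253 genes of 300 to 700 bases and 0.35 over 540 genes of 700 to 1100 bases, and lay 0.13 below it over genes beyond 5000 bases. Over the 262 genes up to 300 bases it lay 0.28 below that mean. The hosts have a median length of 1006 bases, against 3537 over all genes, and DMSO replicate 3 was the highest DMSO culture for 8 of 10 hosts, against 38.8% of all genes. HSN748 replicate 7 deviated by length too, less strongly. It exceeded the mean of the other treated replicates by a median of 0.34 over genes of 300 to 700 bases and 0.19 over genes of 700 to 1100 bases. Up to 300 bases it lay 0.04 below. It was the highest treated culture for 10 of 10 hosts, against 30.1% of all genes.

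HSN748 changed the hosts in both directions. GAS5 and ZFAS1 rose, SNHG16, SNHG1, SNHG12, SNHG15 and SNHG7 fell, and SNHG5, SNHG6 and SNHG8 were not called. Thus 7 of 10 hosts passed the test, where 73.1% of all genes did, with 2 higher (36.6% of all genes were) and 5 lower (36.5% of all genes were). Beyond a log2 fold change of 1, no host was higher and 4 were lower, against 17% and 14.9% of all genes. The median log2 fold change of the 10 hosts was −0.25, against 0.01 over all genes tested. In bulk RNA, fewer cells that carry a transcript and less of it per cell cannot be told apart.

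**Figure D1:**
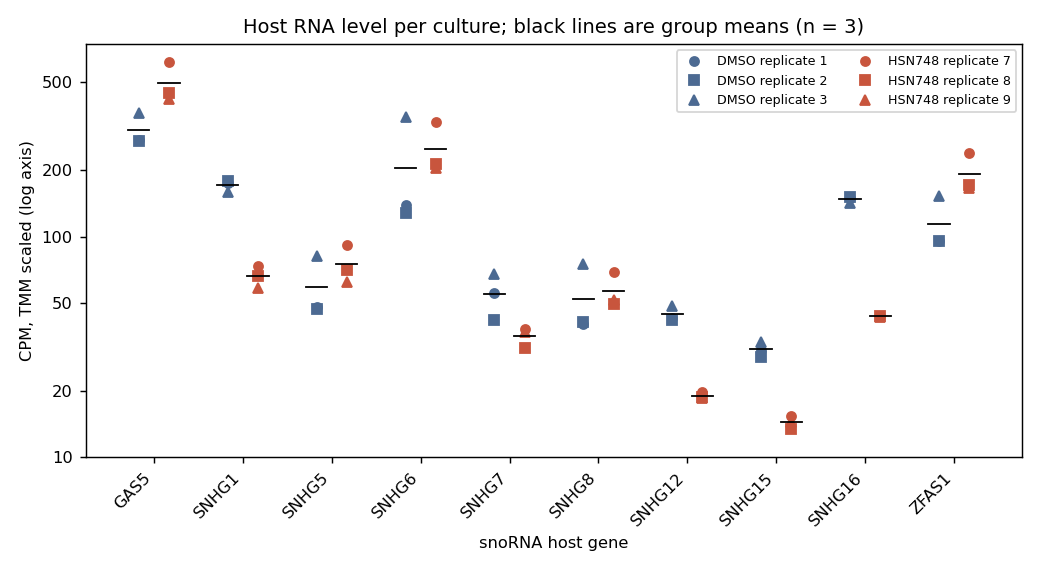
Level of each host gene in CPM (log axis) in the 3 DMSO and 3 HSN748 cultures; symbols mark replicates and black lines the group means. GAS5 and ZFAS1 lie higher in all HSN748 cultures, and SNHG1, SNHG7, SNHG12, SNHG15 and SNHG16 lie lower in all of them. DMSO replicate 3 (triangles) is the highest DMSO culture for all hosts but SNHG1 and SNHG16.

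GAS5, whose introns carry the most snoRNAs of the 10 and whose spliced RNA is known to bind the glucocorticoid receptor, stood at 274, 271 and 363 CPM in DMSO replicates 1, 2 and 3 and at 615, 447 and 419 CPM in HSN748 replicates 7, 8 and 9. All treated cultures lay above all controls. The rise was 0.71 ± 0.17 (log2, SE, n = 3 against 3) or 1.63-fold (adjusted p = 0.0041 by edgeR). ZFAS1, the host of the SNORD12 snoRNAs, stood at 95.5, 95.3 and 153 CPM in DMSO and at 239, 172 and 165 CPM in HSN748. The groups did not overlap, with HSN748 replicate 9 and DMSO replicate 3 the nearest pair. ZFAS1 rose by 0.75 ± 0.21 or 1.68-fold (adjusted p = 0.0095). Groups that did not overlap, HSN748 above, made up 38.3% of all genes. With each culture left out in turn GAS5 ranged from 0.53 (without HSN748 replicate 7) to 0.86 (without DMSO replicate 3) and ZFAS1 from 0.58 to 1.01 (without the same cultures), and with a correction for gene length they were at 0.61 and 0.70, each past the test.

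SNHG16, the host of the SNORD1 snoRNAs, fell the most. It stood at 150, 151 and 142 CPM in DMSO and at 43.9, 43.9 and 43.3 CPM in HSN748, a log2 fold change of −1.76 ± 0.065 (3.38-fold lower, adjusted p = 7.6e-08 by edgeR). Its replicates were the tightest of the 10 hosts, with a coefficient of variation of 3.33% in DMSO and 0.78% in HSN748, against medians of 10.8% and 7.54% over all genes. The HSN748 value comes from 3 cultures with 1882, 1652 and 2146 counts, too few to read it as a trait of the gene. SNHG1, the host of SNORD22 and of SNORD26 to SNORD31, stood at 174, 179 and 160 CPM in DMSO and at 73.7, 66.4 and 58.4 CPM in HSN748, a change of −1.37 ± 0.097 (adjusted p = 2.5e-06). SNHG12, which holds SNORA16A and SNORD99, stood at 42.9, 42.1 and 48.6 CPM in DMSO and at 19.8, 18.8 and 18.5 CPM in HSN748, a change of −1.22 ± 0.088. SNHG15, the host of SNORA9, stood at 30.7, 28.6 and 33.5 CPM in DMSO and at 15.4, 13.4 and 14.5 CPM in HSN748, a change of −1.10 ± 0.098. In each of these 4 hosts every treated culture lay below every control, as was so for 37.1% of all genes.

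SNHG7 fell less and varied more. It stood at 55.4, 41.9 and 68.1 CPM in DMSO and at 38.1, 31.4 and 36.9 CPM in HSN748, with no overlap, a change of −0.63 ± 0.16 (adjusted p = 0.0069 by edgeR). The table gives SNHG7 149 exon bases that DIPK1B also covers on the other strand, and DIPK1B, at a mean of 1.71 CPM in DMSO and 0.56 CPM in HSN748, fell too (−1.59 ± 0.30). The counting is not stated to use strand, so reads of the overlap cannot be told apart, and their part in the SNHG7 counts was not tested.

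For SNHG5, SNHG6 and SNHG8 the groups overlapped, and in each the overlap came from DMSO replicate 3. SNHG6 stood at 140 and 127 CPM in DMSO replicates 1 and 2, at 348 CPM in DMSO replicate 3 and at 330, 212 and 204 CPM in HSN748 (0.28 ± 0.37, adjusted p = 0.51 by edgeR). SNHG5, the host of SNORD50B, stood at 48.1 and 47.0 CPM in DMSO replicates 1 and 2, at 82.0 CPM in DMSO replicate 3 and at 91.8, 70.7 and 62.2 CPM in HSN748 (0.35 ± 0.22, adjusted p = 0.19). SNHG8, the host of SNORA24, stood at 40.4 and 41.3 CPM in DMSO replicates 1 and 2, at 74.8 CPM in DMSO replicate 3 and at 69.4, 49.8 and 51.5 CPM in HSN748 (0.13 ± 0.24, adjusted p = 0.64). Without DMSO replicate 3 all 3 were higher in HSN748 and passed the test, SNHG6 at 0.90 (adjusted p = 0.00044), SNHG5 at 0.65 (adjusted p = 0.00082) and SNHG8 at 0.48 (adjusted p = 0.0052). All 10 hosts were then called, 5 of them higher. With each culture left out in turn, SNHG6 ranged from 0.03 (without DMSO replicate 2) to 0.90 and SNHG5 from 0.19 (without HSN748 replicate 7) to 0.65. SNHG6 was at 0.07 without DMSO replicate 1 and at 0.04 without HSN748 replicate 7, and SNHG5 was at 0.21 without DMSO replicate 1 or 2. SNHG8 had the opposite sign, −0.03, −0.01 and −0.02, without DMSO replicate 1, DMSO replicate 2 or HSN748 replicate 7. With the correction for gene length SNHG5 passed (0.29, adjusted p = 0.034), and SNHG6 (0.23, adjusted p = 0.38) and SNHG8 (0.03, adjusted p = 0.80) did not.

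**Figure D2:**
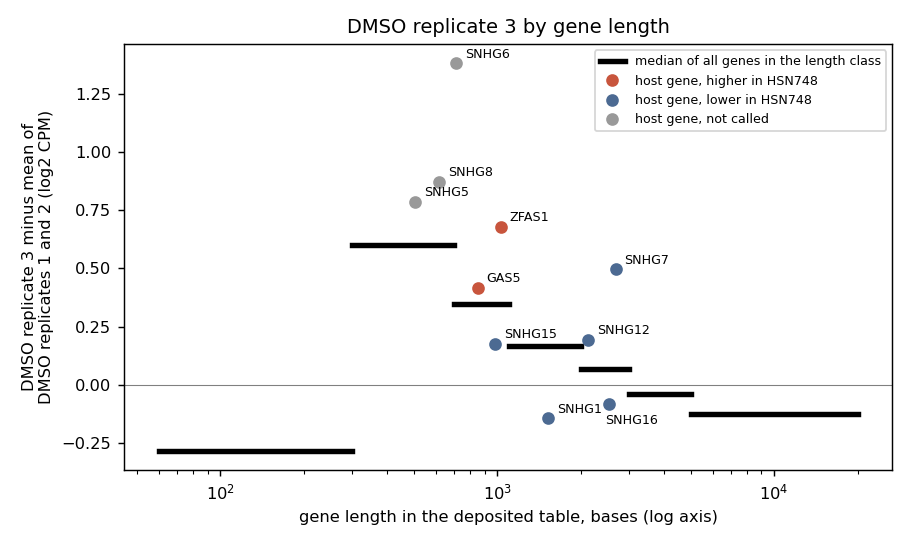
Level in DMSO replicate 3 minus the mean of DMSO replicates 1 and 2 (log2 CPM) against gene length in bases (log axis); dots are the 10 hosts coloured by their call in HSN748, and black lines are medians of all genes in 7 length classes. SNHG6, SNHG8 and SNHG5, the hosts not called, have the largest excess of the 10 (1.38, 0.87 and 0.79), above the medians of 0.60 and 0.35 for genes of 300 to 700 and of 700 to 1100 bases.

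The scaling of the libraries moved the whole scale. The median of all genes was 0.01 with TMM, 0.21 with upper-quartile factors, 0.13 with total counts, and 0.45 and 0.42 with factors from 12 and 11 reference genes. With the reference genes the split of the hosts was 4 higher and 4 lower, or 5 higher and 4 lower, in place of 2 and 5. SNHG5 and SNHG8 passed as higher with either set and SNHG6 with the second alone (0.72, adjusted p = 0.049), while SNHG7 was no longer called (−0.18 and −0.21). GAS5 and ZFAS1 rose and SNHG1, SNHG12, SNHG15 and SNHG16 fell under each of these scalings. Relative to the median of all genes, GAS5 lay 0.70 and SNHG7 −0.64 with the first reference set.

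Per kilobase of gene length, GAS5 was the most abundant host in DMSO at 356 ± 61.9 CPM per kilobase (mean ± SD, n = 3), followed by SNHG6 at 288 ± 174, whose spread reaches GAS5. SNHG5 (116 ± 39.2), SNHG1 (112 ± 6.55) and ZFAS1 (111 ± 32.2) did not differ beyond their spread. SNHG8 (84.2 ± 31.7) overlapped this trio, SNHG16 (58.2 ± 1.94) and SNHG15 (31.4 ± 2.50) came lower, and SNHG12 (20.9 ± 1.66) and SNHG7 (20.6 ± 4.89) were alike within their spread. In HSN748 GAS5 stood at 581 ± 125, SNHG6 at 350 ± 99.6, ZFAS1 at 187 ± 39.7, SNHG5 at 148 ± 30.02 and SNHG8 at 91.9 ± 17.6 CPM per kilobase. SNHG1 followed at 43.4 ± 5.05, now below SNHG8, and SNHG16 at 17.2 ± 0.134, SNHG15 at 14.7 ± 1.02, SNHG7 at 13.3 ± 1.34 and SNHG12 at 8.95 ± 0.304 came last.

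The 10 hosts together took 0.113 ± 0.0227% of all counts in DMSO and 0.130 ± 0.0247% in HSN748 (SD, n = 3 each), which did not differ beyond the spread (exact two-sided permutation p = 0.5). What differed was the makeup of that sum, in which no scaling factor enters. GAS5 made up 24.7 to 26.4% of the hosts' counts in the DMSO cultures and 39.0 to 40.0% in the HSN748 cultures. ZFAS1 went from between 9.10 and 10.4% to between 15.3 and 15.6%. SNHG1 went from between 10.8 and 17.4% to between 4.80 and 5.90%, and SNHG16 from between 9.65 and 14.8% to between 2.86 and 4.04%. For each of these 4 hosts the ranges of the groups did not overlap. Nor did they for SNHG5, whose share was larger in HSN748, or for SNHG7, SNHG12 and SNHG15, whose shares were smaller. The ranges overlapped for SNHG6 and SNHG8. The shares are parts of the same sum, so their changes are not independent of one another.

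The deposited table also holds 28 snoRNA rows that lie inside 9 of the hosts on the same strand, a selection by position made after the table was seen; SNHG7 has none in it. Of these 28, 26 were lower in HSN748, all beyond a log2 fold change of 1, and none was higher. SNORD87 of SNHG6 (−0.55 ± 0.28) and SNORD1C of SNHG16 (−0.78 ± 0.35) were not called. The median was −1.503. Among the other 162 snoRNA and scaRNA rows, 64.8% were lower (53.1% beyond a log2 fold change of 1) and 4.94% higher, with a median of −1.09. Counts on these rows were small, and the most abundant, SNORD80 of GAS5, had a mean of 11.7 CPM in DMSO and 4.15 CPM in HSN748. The library kit primes on poly(A) tails, which mature snoRNAs lack, so reads of snoRNAs and of unspliced host introns cannot be told apart. All genes up to 300 bases, 262 in number, had a median of −0.99, and with the correction for gene length 18 of the 28 rows were called lower. That length class holds the 28 rows (median 76.5 bases) and many of the other 162 (median 129.5 bases). The correction was fitted with these rows included, so neither value is a background apart from the snoRNA rows. Genes of 300 to 700 bases had a median of 0.22. The largest shared exon stretch was 2 bases, between SNORA103 and GAS5.

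The snoRNAs whose sequences are shown are those with the smallest adjusted p in their host among rows with the same name and coordinates in GENCODE v29 (GRCh38). They stand for both guide classes, for hosts that fell with their snoRNA rows (SNHG1 and SNHG15) and for hosts that rose or were not called while the rows fell (ZFAS1 and SNHG8). In the C/D box snoRNAs capitals mark the C box letters TGATGA, which SNORD28 does not hold in this form, and the D box letters CTGA within the last 15 bases, and in the H/ACA snoRNAs the letters ACA within the last 8 bases.
SNORD12: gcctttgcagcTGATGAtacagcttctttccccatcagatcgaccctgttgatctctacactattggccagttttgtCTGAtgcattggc
SNORD28: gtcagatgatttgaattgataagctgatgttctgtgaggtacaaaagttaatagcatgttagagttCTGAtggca
SNORA24: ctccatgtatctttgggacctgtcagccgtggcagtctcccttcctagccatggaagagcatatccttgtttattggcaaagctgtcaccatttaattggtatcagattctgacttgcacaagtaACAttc
SNORA9: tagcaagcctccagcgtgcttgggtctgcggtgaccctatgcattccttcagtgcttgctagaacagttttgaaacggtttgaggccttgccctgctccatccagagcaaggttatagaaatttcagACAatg
SNORD12 lies in ZFAS1 at chr20:49280683-49280772 on the plus strand, SNORD28 in SNHG1 at chr11:62854621-62854695 on the minus strand, SNORA24 in SNHG8 at chr4:118279190-118279320 on the plus strand and SNORA9 in SNHG15 at chr7:44985378-44985510 on the minus strand. TGATGA was present in 77.4% and a late CTGA in 91.3% of 288 GENCODE SNORD entries, and a late ACA in 89.9% of 149 SNORA entries, on the snoRNA's strand.

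In GAS5 and ZFAS1 the host exons and the snoRNA rows went opposite ways. The 10 snoRNA rows of GAS5, all called, fell with log2 fold changes between −1.37 (SNORD79) and −2.42 (SNORD74), while GAS5 rose. The summed counts of these rows were 1888, 1640 and 1101 in DMSO and 502, 489 and 489 in HSN748. In ZFAS1, SNORD12 had 154, 99 and 70 counts in DMSO and 21, 17 and 23 in HSN748 (−2.30 ± 0.22, adjusted p = 1.8e-05 by edgeR), SNORD12C fell by 1.72 and SNORD12B by 1.58 on the log2 scale. In SNHG1, by contrast, host and snoRNA rows fell together, with SNORD28 at 260, 184 and 106 counts in DMSO and 37, 30 and 50 in HSN748 (−2.14 ± 0.22) and the 7 rows between −1.40 and −2.55. The host fell too in SNHG12, where SNORA16A changed by −1.12 ± 0.24 and SNORD99 by −1.49 ± 0.32, in SNHG15, where SNORA9 changed by −1.30 ± 0.23, and in SNHG16, where SNORD1A changed by −1.25 ± 0.34. In the hosts that were not called, SNORD50B of SNHG5 (−1.69 ± 0.32) and SNORA24 of SNHG8 (−1.36 ± 0.39) fell.

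**Figure D3:**
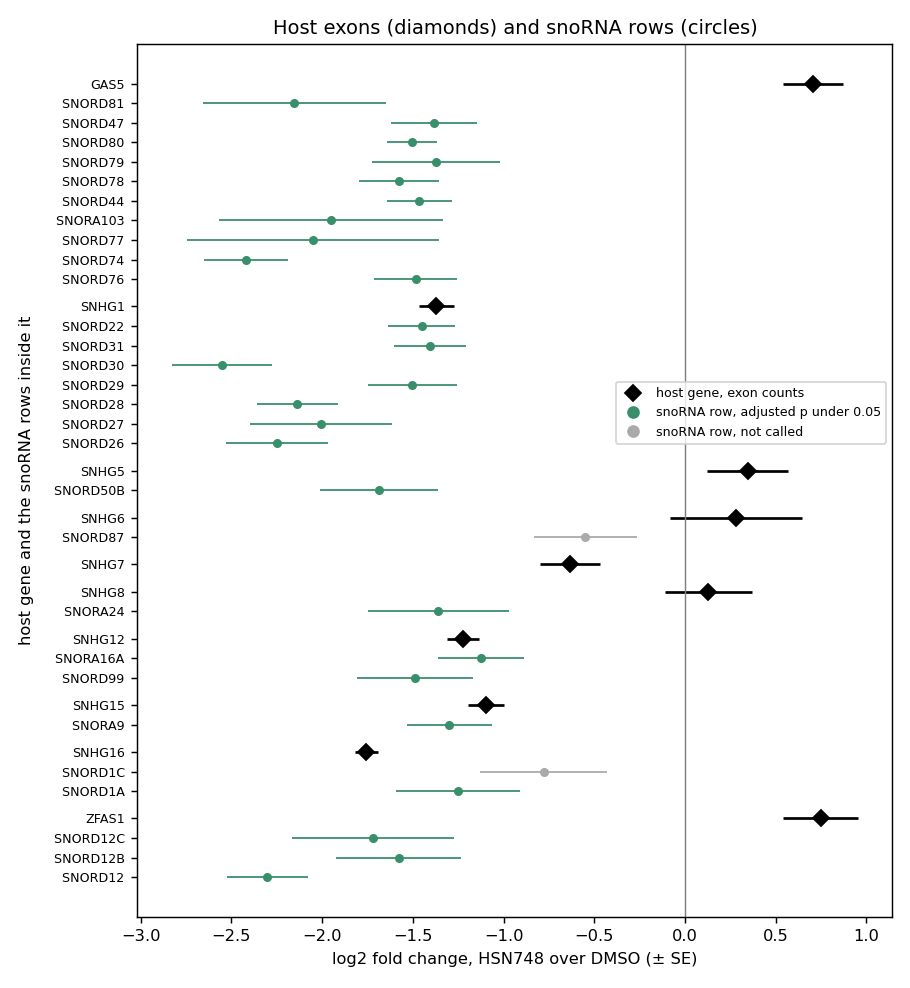
Log2 fold change of HSN748 over DMSO with its SE for the 10 hosts (diamonds) and the 28 snoRNA rows inside them (circles, green where the adjusted p is under 0.05). The snoRNA rows of GAS5 and ZFAS1 lie between −1.37 and −2.42 while their hosts lie at 0.71 and 0.75, whereas host and snoRNA rows lie on the same side in SNHG1, SNHG12, SNHG15 and SNHG16.

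The ratio of host counts to summed snoRNA counts within a library is free of scaling and restates these directions per culture. For GAS5 it was 8.36, 6.99 and 11.97 in DMSO and 52.5, 34.4 and 42.5 in HSN748, a difference of 2.26 (log2). For ZFAS1 it was 15.6, 15.1 and 25.8 in DMSO and 153, 120 and 78.8 in HSN748, a difference of 2.63. SNHG5 (2.08) and SNHG8 (1.64) also had every treated ratio above every control ratio, and SNHG16 had every treated ratio below (−0.83). The SNHG5 and SNHG8 ratios each rest on 1 snoRNA row with few counts in HSN748, 23, 17 and 14 for SNHG5 and 19, 10 and 8 for SNHG8. For GAS5, ZFAS1, SNHG5, SNHG8 and SNHG16 the exact two-sided permutation p was 0.1, the smallest that 3 against 3 cultures allow. It was 0.19 after Benjamini-Hochberg adjustment over 76 hosts, so none could pass. The ratios of SNHG1 (0.30, exact p = 0.2), SNHG15 (0.22, exact p = 0.5), SNHG12 (0.01, exact p = 0.9) and SNHG6 (0.93, exact p = 0.4) overlapped between the groups. SNHG6 ratios were 40.9 and 25.1 in DMSO replicates 1 and 2, 133 in DMSO replicate 3 and 111, 72.0 and 117 in HSN748, and the difference ranged from 0.41 to 1.61 with each culture left out in turn, the lowest without DMSO replicate 2 and the highest without DMSO replicate 3. With each culture left out in turn the difference ranged from 2.09 to 2.47 for GAS5 and from 2.42 to 2.89 for ZFAS1.

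**Figure D4:**
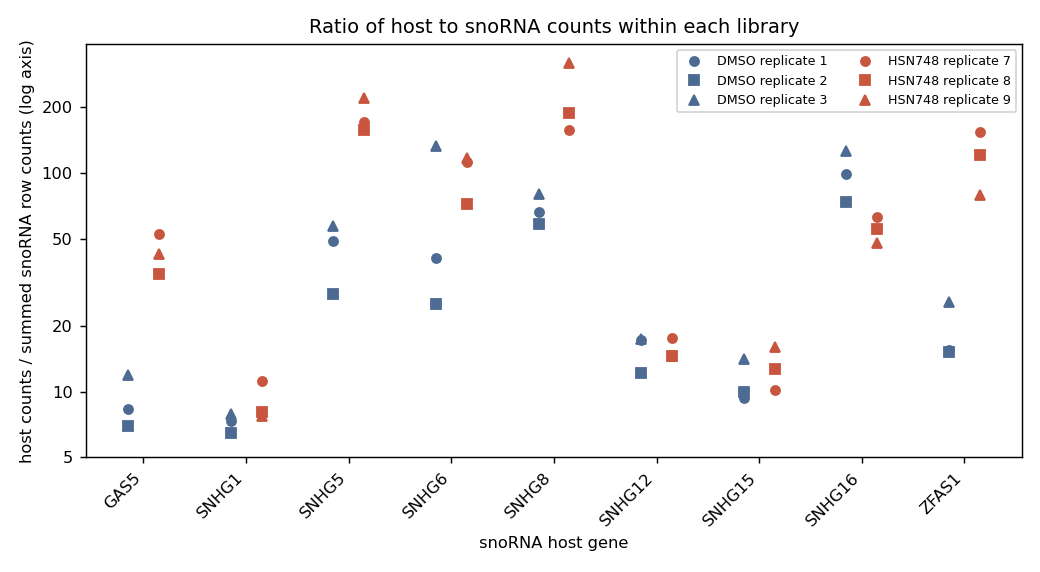
Ratio of host counts to the summed counts of the snoRNA rows inside the host (log axis) in each library, for the 9 hosts with such rows. The 3 HSN748 libraries lie above the 3 DMSO libraries for GAS5, SNHG5, SNHG8 and ZFAS1 and below them for SNHG16, and overlap for SNHG1, SNHG6, SNHG12 and SNHG15.

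Among 67 other genes with snoRNA rows inside them, the ratio was higher without overlap in 25 and lower in 10, with a median difference of 0.29. The median of the 9 hosts, 0.93, is the value of SNHG6, whose groups overlapped and which moved from 0.41 to 1.61 with a culture left out. Grouped by gene list after these values were seen, 17 of 20 hosts that code for ribosomal proteins or other TOP gene products had a higher ratio without overlap, with a median of 1.76 and a range from 0.31 to 2.66. Of the 40 hosts in neither this nor the noncoding list, 6 had a higher and 9 a lower ratio, with a median of −0.16. The differences of GAS5 and ZFAS1 thus fell within the range of the coding TOP hosts. Of these hosts 7 reached 2 or more, among them RPS12 (2.66), RPLP2 (2.56) and RPL3 (2.25). The lowest was RPL17 (0.31), whose groups overlapped, and the next was RPL10 (0.97). SNHG12 (0.01), SNHG15 (0.22) and SNHG16 (−0.83) lay below RPL17, and SNHG1 (0.30) was level with RPL17 alone. Of 7 other noncoding hosts, 2 had a higher and 1 a lower ratio without overlap, and 4 overlapped. Their median difference was 0.19, from −0.45 (SNHG21) to 1.998 (SNHG29).

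Of 16 other noncoding snoRNA hosts, 8 were lower (36.5% of all genes were), 1 was higher and 7 were not called, with a median of −0.51. SNHG3 (−1.40 ± 0.091), SNHG17 (−1.11 ± 0.079) and DANCR (−1.69 ± 0.12) fell, and SNHG29 rose from 833 ± 104 to 1451 ± 189 CPM (0.80 ± 0.12). Of 23 protein-coding hosts, 15 were lower and 6 higher (36.5% and 36.6% of all genes were), with a median of −0.65. HSPA8 (−2.78 ± 0.093) and HSPA9 (−1.81 ± 0.073), which code for chaperones, and NOP56 (−1.92 ± 0.067), which codes for a core protein of C/D snoRNPs, fell. TPT1, a TOP gene that codes for a translationally controlled protein, rose (0.92 ± 0.11), as did NOP53, which codes for a ribosome assembly factor (1.03 ± 0.15).

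Few coding TOP genes were lower in HSN748. Of 78 ribosomal protein genes, 32 were higher, 3 lower and 43 not called, with a median of 0.43. Of all genes 36.6% were higher and 36.5% lower, so the list differed from them mainly in its few lower genes. RPS4X stood at 0.59 ± 0.10. RPS26 (−1.36 ± 0.19) and RPL17 (−0.85 ± 0.12) fell. Ribosomal protein genes have near-identical pseudogene copies, so the counts of those that rose and of those that fell are alike uncertain. The count of higher ribosomal protein genes was 71 without DMSO replicate 3, 15 without DMSO replicate 1, 18 without DMSO replicate 2, 16 without HSN748 replicate 7 and 20 without HSN748 replicate 9. Of 14 other coding TOP genes, 9 were higher and 1 lower, with a median of 0.47. EEF1A1, a translation elongation factor (0.79 ± 0.11), and EIF3H, a subunit of an initiation factor (0.67 ± 0.086), rose, and the initiation factor EIF4B fell (−0.33 ± 0.083), a call that the upper-quartile factors and both reference sets did not make. Within each library, the mean log2 CPM of the 10 hosts minus that of the ribosomal protein genes was −2.62, −2.61 and −2.75 in DMSO and −3.41, −3.32 and −3.46 in HSN748. The difference between groups was −0.74 with no overlap (exact two-sided permutation p = 0.1, the smallest possible).

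**Figure D5:**
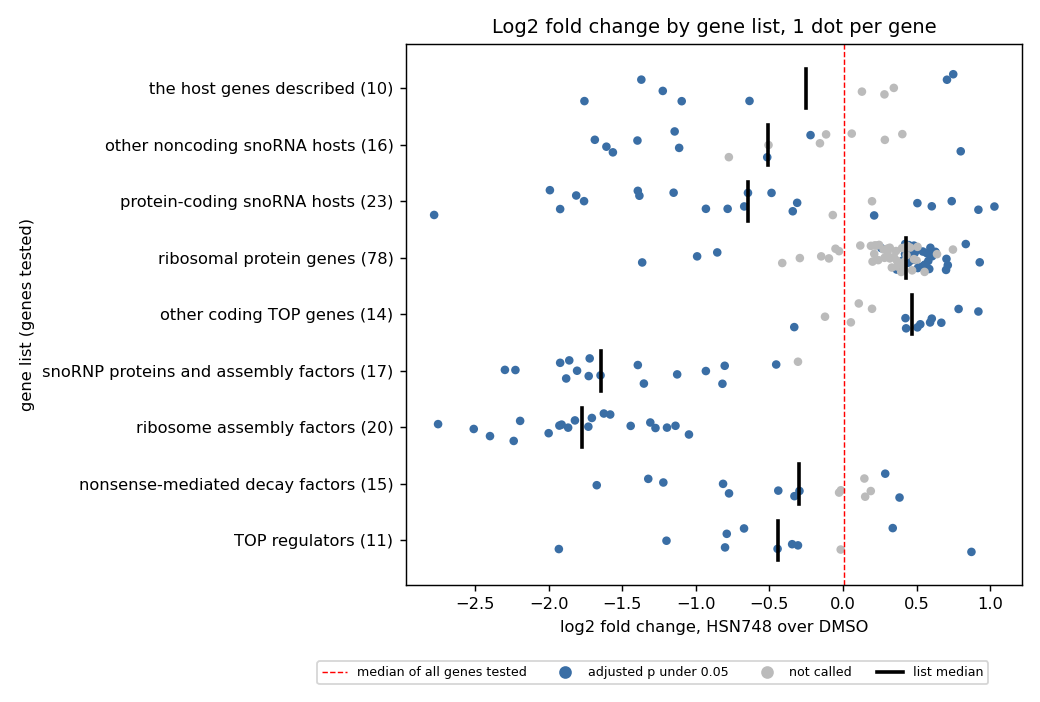
Log2 fold change of HSN748 over DMSO for every tested gene of the 9 lists; blue dots passed an adjusted p under 0.05, black bars are list medians and the red dashed line is the median of all genes tested. The 10 hosts spread from −1.76 to 0.75 with a median of −0.25, which lies between the medians of the ribosomal protein genes (0.43) and of the snoRNP and ribosome assembly lists (−1.65 and −1.78).

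Transcripts for the proteins that assemble snoRNAs into particles were lower. Of 17 genes for snoRNP proteins and their assembly factors, 16 were lower (36.5% of all genes were) and none higher, with a median of −1.65. RUVBL1, an ATPase of snoRNP assembly, went from 114 ± 3.16 to 23.2 ± 0.914 CPM (−2.30 ± 0.072), and NOP56 and the nucleolar chaperone NOLC1 (−1.86 ± 0.069) fell as well. All 20 ribosome assembly factors were lower, with a median of −1.78, among them UTP20 (−2.75 ± 0.079), NIP7 (from 132 to 32.9 CPM) and the helicase DDX21 (−2.40 ± 0.089).

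Nonsense-mediated decay factors were mixed, with 8 of 15 lower, 2 higher and a median of −0.30, where 36.5% of all genes were lower and 36.6% higher. MAGOHB (−1.67 ± 0.10) and EIF4A3 (−1.32 ± 0.089), both of the exon junction complex, and SMG5 (−0.77 ± 0.073), which helps recruit phosphatase to UPF1, fell. UPF3A (0.38 ± 0.086) and the kinase SMG1 (0.29 ± 0.088) rose. Of 11 regulators of TOP translation, 8 were lower and 2 higher, against the same shares of all genes, with a median of −0.44. LARP1, which binds the TOP motif, went from 741 ± 6.42 to 323 ± 12.8 CPM (−1.20 ± 0.070). MTOR fell (−0.67 ± 0.066), and TSC1 (0.87 ± 0.072) and TSC2 (0.34 ± 0.097), which restrain mTOR complex activity, rose. With factors from the reference genes, 7 decay factors were higher and 5 lower with either set, and 4 or 5 TOP regulators were lower.

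The genes beside the hosts did not all move with them. ZBTB37, which lies on the other strand with its start 800 bases inside the 5′ end of GAS5, so that the spans of the genes overlap, rose as GAS5 did (0.52 ± 0.12). SLC3A2, an amino acid transporter subunit that starts 224 bases from SNHG1 on the other strand, fell as SNHG1 did (−1.27 ± 0.10, against −1.37). ZNFX1, which starts 121 bases from ZFAS1 on the other strand, fell (−0.25 ± 0.070) while ZFAS1 rose. For the other hosts the nearest gene of the table outside the host, a choice made after the table was seen because the nearest row was often the host's own snoRNA, started 7681 bases or more away. Among these, MYO1G rose (1.37 ± 0.11) where SNHG15 fell, SYNCRIP (−1.52 ± 0.098) and COPS5 (−0.38 ± 0.073) fell and PRSS12 rose (0.40 ± 0.061) beside hosts that were not called, and DIPK1B fell, as SNHG7 did. TRNAU1AP beside SNHG12 (−0.14 ± 0.088) and RHBDF2 beside SNHG16 (0.02 ± 0.12) were not called. TRNAU1AP shares 8 exon bases with SNHG12 on the other strand.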

How the data were processed

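The values the authors deposited are raw whole-number counts of 13244 genes in 6 libraries, made from RNA extracted with TRIzol and a low-input library kit. Of software, bcl2fastq and STAR appear in the submitters' processing notes. For the counting program, strand setting, annotation, genome build and gene filter the entry is: not given in the sources used here. Of 12794 genes with a symbol in RefSeq GRCh38.p14, 9001 had the same start. The 12 columns of log values and the authors' own fold changes and p-values in the table were not used.

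Counts were scaled with TMM and tested in edgeR 4.0.16 (R 4.3.3) with the quasi-likelihood test, treatment as the only term, after filterByExpr removed 160 genes. A gene was called at an adjusted p under 0.05, and the SE is the log2 fold change divided by the square root of F. The biological coefficient of variation was 11.2%. Ratios and shares were compared by exact permutation. Alternatives were DESeq2 1.42.0, limma-voom (limma 3.58.1), other scalings and filters, a loess offset on gene length, and each culture left out. All 10 hosts were named, with the 3 smallest adjusted p of each other list, up to 2 genes called against its direction, each host's neighbour, and the 5 genes with the most similar profile. The members and lists were chosen with earlier results of these data known. Figures were drawn with matplotlib 3.10.9.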

Additional observations from a re-analysis of the deposited data

How the results depend on the processing

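No paired analysis was made because the labels state no pairing of the cultures. They number the DMSO cultures 1 to 3 and the HSN748 cultures 7 to 9, which neither shows nor excludes pairing. Factors from the reference gene sets raised the count of hosts called higher from 2 to 4 and 5 and turned their median log2 fold change from −0.25 to 0.20 and 0.17, while moving all genes by a similar amount. With each culture left out in turn, the hosts called numbered 7 to 10, those called higher 2 to 5 and those called lower 5, and their median ranged from −0.41 to 0.0104, the highest values being those without DMSO replicate 3. SNHG8 ranged from −0.0282 to 0.48, and the log2 ratio of SNHG12 to its snoRNA rows from −0.16 to 0.10. GAS5, ZFAS1, SNHG1, SNHG12, SNHG15 and SNHG16 kept their direction and passed the test under each of the 16 alternatives. A filter at a mean of 5 CPM left 1 of the 28 snoRNA rows to test, and it was called lower. The snoRNA rows called lower numbered 23 to 26 under the other tools, scalings and filters, 18 with the length correction and 25 to 28 with a culture left out.

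Of the lists, ribosomal protein genes called higher numbered 55 with upper-quartile factors, 52 with total counts, 70 with either reference set and 52 with the length correction, against 32. Decay factors called higher numbered 6 with upper-quartile factors, 5 with total counts or the 5 CPM filter and 1 with the length correction, against 2. Other noncoding hosts called higher numbered 3 with upper-quartile factors or total counts, 6 and 5 with the reference sets and 2 with the 5 CPM filter, against 1. TOP regulators called lower numbered 5 with upper-quartile factors, against 8. Genes called over all other lists numbered 107 to 166 of 188 with a culture left out, against 126. Counts were small for most snoRNA rows, which limits how firmly single rows can be read. The causes were not tested.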

Other observations

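By Euclidean distance between centred log2 CPM profiles over the 6 cultures, the genes nearest to the mean profile of the 10 hosts were DPY30 (0.08), DMAC1 (0.11), ENY2 (0.11), RPL36AL (0.11) and CAMTA1 (0.14), where genes had to average 5 CPM or more. The hosts themselves lay farther from that mean, from 0.45 for SNHG7 to 1.78 for SNHG16.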
